A study of Mus musculus with 29 samples.

Results

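The binding sites of EBF1-HA in NIH-3T3 cells are the 7669 regions of its single deposited peak list, and all of them are described here, out of 304922 peaks in 28 lists. NIH-3T3 is an immortalized mouse fibroblast line. For each transcription factor (TF), a line carrying a doxycycline-inducible transgene fused to HA tags was induced overnight with 500 ng/ml doxycycline, and HA-bound DNA was pulled down and sequenced (ChIP-seq). The 24 constructs are EBF1-HA and 23 others, which share the cell line, the induction and the antibody: 21 of the 24 are unmutated TFs, 2 are the FOXA1 mutants FOXA1_RR-HA and FOXA1_SW-HA, and 1 is OCT4-HA co-expressed with SOX2-YPET. EBF1-HA has 1 list, as do all others except SOX2-HA, OCT4-HA, FOXA1-HA and BHLHB8-HA, which have 2. No value below therefore carries an error between EBF1-HA libraries, and the intervals and p-values cover counting error over peaks only. The files hold positions alone, so the depth, height and significance of each peak are unknown. The protein was expressed from a transgene, so the sites are those of induced EBF1-HA and not of a protein at its own level in its own cell type.

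EBF1, early B-cell factor 1, belongs to a small family of DNA-binding proteins with 4 members in the mouse, Ebf1 to Ebf4, that are related to the Collier protein of flies. It binds DNA as a dimer, each subunit reading one side of a palindrome. EBF1 is known for specifying the B lymphocyte, where it acts with E2A, PAX5, RUNX1 and FOXO1, and the family also acts in fat cell precursors, olfactory neurons and bone marrow stroma. The zinc finger proteins ZFP423 and ZFP521 bind EBF proteins and restrain them.

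The palindrome is written here as TCCCNNGGGA, with 8 fixed bases and a spacer of 2 bases, and it reads the same on both strands. The sequences below are 60 bp stretches of GRCm38, plus strand, from 6 EBF1-HA peaks, with the palindrome in capitals. They show the sequence whose share sets this list apart from the other 27, in an EBF gene, at promoters and at distal sites where no other construct had a peak. The first 5 follow a fixed rule, and Hip1r was chosen after its values were seen, for its 3 copies of the palindrome.

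Ebf2 intron, chr14:67357778-67357837, EBF1-HA alone: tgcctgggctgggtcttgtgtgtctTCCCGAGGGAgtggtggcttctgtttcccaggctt
Btbd19 promoter, chr4:117125202-117125261, shared with 2 constructs: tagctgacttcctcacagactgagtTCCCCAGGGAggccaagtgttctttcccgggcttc
Pold4 promoter, chr19:4231659-4231718, shared with 5 constructs: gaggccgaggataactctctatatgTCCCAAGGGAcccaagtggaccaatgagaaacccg
Sectm1a distal site, chr11:121096064-121096123, EBF1-HA alone: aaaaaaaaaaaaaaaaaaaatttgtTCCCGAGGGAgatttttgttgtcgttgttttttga
Coro1c distal site, chr5:113924374-113924433, EBF1-HA alone: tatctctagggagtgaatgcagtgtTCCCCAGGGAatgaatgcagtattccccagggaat
Hip1r promoter, chr5:123973384-123973443, EBF1-HA alone: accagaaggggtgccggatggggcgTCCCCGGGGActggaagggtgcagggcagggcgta

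The EBF1-HA peaks had a median width of 307 bp, quartiles at 246 and 392 bp, and a range of 194 to 1827 bp. Median widths in the other lists ran from 224 to 362 bp. They covered 0.0987% of the sequenced genome. The list ranked 10th of the 28 by number of peaks. Neighbouring EBF1-HA peaks lay a median of 61137 bp apart. Chromosome 11 held 818 of the peaks (10.7%), above the 6.46% to 9.45% that it held in the 19 other lists of 1000 or more peaks. Chromosome X held 41 peaks (0.535%), within the range of 0.311% to 1.47% of those lists.

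Most EBF1-HA sites lay away from gene starts. Of the 7669 peaks, 1303 (17.0%, 95% interval 16.2 to 17.9) were centred at most 1 kb from a protein-coding transcript's start and are called promoter peaks, and the other 6366 are called distal. The median distance to the nearest start was 16565 bp. Within 10 kb of a start lay 3093 peaks (40.3%), within 100 kb lay 6718 (87.6%), and 951 (12.4%) lay farther. By annotation, 2799 peaks (36.5%) were intergenic, 2674 (34.9%) lay in introns, 522 (6.81%) in noncoding genes, 214 (2.79%) in noncoding exons, 98 (1.28%) in UTRs and 59 (0.769%) in coding exons. Among the 19 other lists of 1000 or more peaks, the promoter share ran from 2.19% to 45.3% with a median of 8.77%, and 4 lists had a higher promoter share than EBF1-HA. Within promoters, 751 peaks lay before the start and 552 at or after it, at a median distance of 205 bp.

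The palindrome was present in the central 200 bp of 1038 EBF1-HA peaks (13.5%, 95% interval 12.8 to 14.3). Of 6900 windows of the same size, 5 kb downstream and free of any construct's peak, 41 held it (0.594%, interval 0.427 to 0.805). The difference was 4.69 in log2 odds (two-sided Fisher's exact test, p = 5.8e-243). Median GC content was 53% in the peaks and 46.5% in the windows, and its part in the difference was not tested. Over the whole width, 1209 peaks (15.8%) held at least 1 copy. Copies were centred: 548 of the 1063 copies (51.6%) lay within 25 bp of the midpoint of their peak, where an even spread would place 26.7%. The median offset was 24 bp.

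EBF1-HA peaks favoured 1 spacing of the half-sites. With 2 bases between TCCC and GGGA the pair was found in 13.5% of peaks, and with 3 bases, TCCCNNNGGGA, in 4.85% (372 peaks), against 0.319% of windows. With 4 bases it was found in 1.90% against 0.304%, and with 0, 1, 5, 6, 7 or 8 bases in 0.913% to 1.42% of peaks. At 7 bases the windows stood higher than the peaks, at 2.30% against 0.991%, and at the other gaps they stood lower. Of the 372 peaks with the 3 base spacing, 252 (67.7%) also read as the inner CCCNNGGG with one outer base moved by 1 position, as did 11 of the 22 windows with that spacing (50.0%). When the half-sites were put in the opposite order, GGGANNTCCC, the pair was found in 1.34% of peaks at a gap of 2 bases and in 0.665% to 1.38% at all gaps from 0 to 8. No gap in the opposite order stood apart as the facing pair did at 2 bases.

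**Figure D1:**
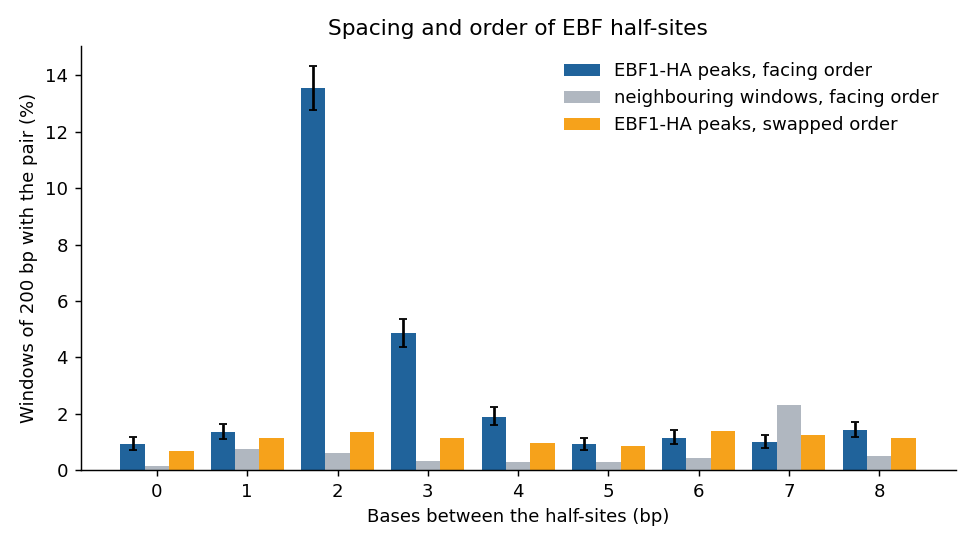
Share of 200 bp windows (%, vertical axis) that hold TCCC and GGGA at each gap (bp, horizontal axis), in 7669 EBF1-HA peaks in facing order (blue, with 95% exact intervals) and swapped order (orange), and in 6900 neighbouring windows in facing order (grey). The facing pair reaches 13.5% at a gap of 2 bases and 4.85% at 3 bases, while the swapped pair stays between 0.665% and 1.38%.

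Shorter and longer forms of the palindrome were tried. The inner 6 bases, CCCNNGGG, were found in 2993 peaks (39.0%) and in 5.19% of windows, a difference of 3.55 in log2 odds. The 10 base form TTCCCNNGGGAA was found in only 71 peaks (0.926%) and in 3 windows (0.0435%), a difference of 4.21 in log2 odds (Fisher's exact test, p = 1.3e-16). Thus the enrichment was present in all 3 forms, and most peaks with the inner 6 bases lacked the outer ones.

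Peaks without an exact palindrome often held a near match. One substituted base was found in 2869 peaks (37.4% of all) that lacked an exact copy, against 8.19% of windows, and 3762 peaks (49.1%) held neither, against 91.2% of windows. Substitutions are counted from position 1, the T of TCCC, in either half-site. The most frequent were T1C, in 727 of the peaks without an exact copy (11.0%, against 0.714% of windows without one), and C3T, in 719 (10.8% against 0.904%). T1G followed with 465 (7.01% against 0.962%), C4T with 374 (5.64% against 0.919%) and T1A with 285 (4.30% against 0.598%). By contrast, C2A was found in 34 peaks (0.513% against 0.408%, adjusted p = 0.38) and C2T in 104 (1.57% against 1.27%, adjusted p = 0.16), by Fisher's exact test with Benjamini-Hochberg adjustment over the 12 substitutions. All of the other 10 substitutions passed that test. Position 2 was thus the one at which 2 of the 3 substitutions showed no detectable excess.

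A few peaks held clusters of the palindrome. Over their whole width, 36 peaks held 2 or more copies. A 580 bp intergenic peak 15638 bp before the start of Coro1c, which encodes the actin-binding protein coronin 1C, held 15 copies spanning 487 bp, with a median step of 23 bp. This is the tandem array whose repeating unit can be read in the Coro1c sequence above. A 460 bp peak in an intron, 5804 bp before the nearest start, that of Pacsin1, held 5 copies spanning 276 bp. A 221 bp peak at the promoter of Hip1r held 3 copies within 88 bp, at steps of 34 and 44 bp. None of these 3 peaks overlapped a peak of another construct. The 2 copies near Sectm1a lay 436 bp apart and the 2 near Epb41l4b lay 591 bp apart.

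Among the 28 lists, the EBF palindrome was most frequent in that of EBF1-HA. In the other lists of 1000 or more peaks its share ran from 0.266% (ZFP319-HA) to 1.15% (SIX6-HA), against 13.5% in EBF1-HA. Of the 27 other lists, 6 passed the test against their own neighbouring windows (adjusted p under 0.05 over 28 lists): both BHLHB8-HA lists, DLX1-HA, DLX6-HA, SIX6-HA and SOX2-HA replicate 1. ZFP319-HA fell below its windows (0.266% against 0.461%, adjusted p = 0.024, Fisher's exact test). After peaks that overlapped an EBF1-HA peak were taken out, 1 of the 6 still passed, BHLHB8-HA replicate 2, at 0.498% against 0.366% of windows (adjusted p = 0.008, Fisher's exact test). By the same exact test, SOX15-HA (0.0764% against 0.391%, adjusted p = 0.040) and ZFP319-HA (0.199% against 0.447%, adjusted p = 0.0044) then fell below their windows. Taking these peaks out also removes the palindromes that EBF1-HA occupied, so a fall was built in. The count therefore cannot show whether the other lists hold the palindrome apart from EBF1-HA sites.

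**Figure D2:**
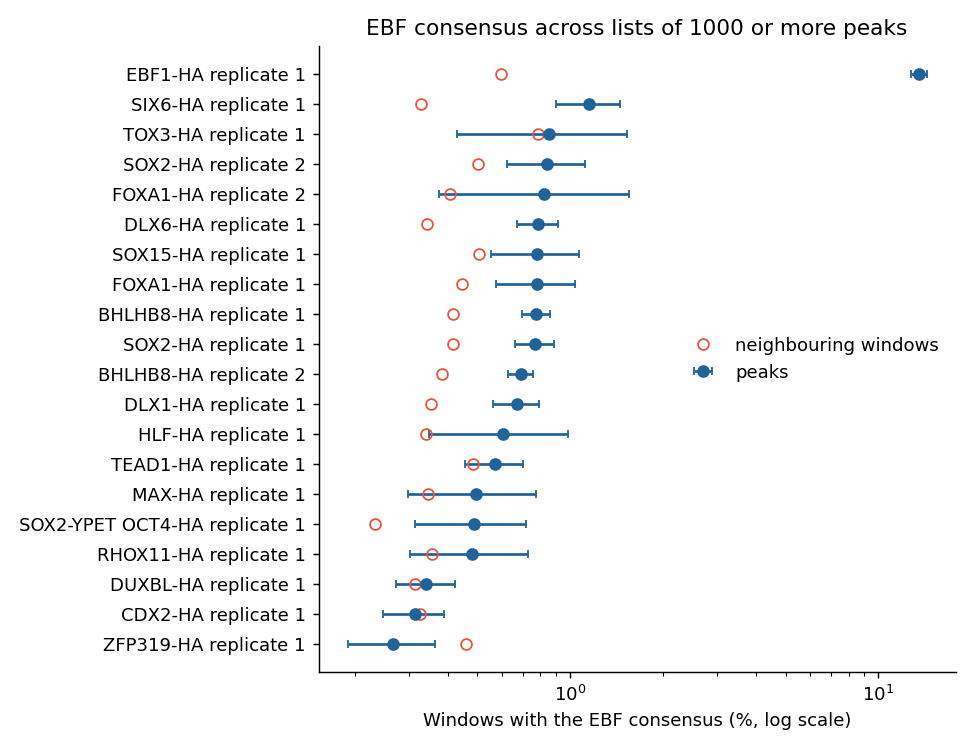
Share of 200 bp windows with the palindrome (%, log scale) in the 20 lists of 1000 or more peaks, for peaks (filled, with 95% exact intervals) and for neighbouring windows (open). EBF1-HA stands at 13.5% and the other lists between 0.266% and 1.15%.

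Each EBF1-HA peak was then classed by how many of the 23 other constructs had a peak that overlapped it by at least 1 bp. No other construct was found at 1164 peaks (15.2%), which are called EBF1-only. This number depends on the definition: it was 2198 with both BHLHB8-HA lists left out and 2277 when an overlap had to cover 50% of both peaks. There was 1 other at 1377 peaks, 2 to 4 at 2926, 5 to 8 at 1805, and 9 or more at 397 (5.18%). EBF1-only peaks were narrower, with a median width of 258 bp against 319 bp for shared peaks, and 388 bp for peaks with 9 or more others.

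The more constructs a site had, the less often it carried the EBF palindrome. The share was 30.3% at EBF1-only peaks (353 of 1164, 95% interval 27.7 to 33.1), 17.9% with 1 other construct, 11.0% with 2 to 4, 5.98% with 5 to 8 and 2.02% with 9 or more (8 of 397, interval 0.874 to 3.93). EBF1-only peaks exceeded shared peaks (685 of 6505, 10.5%) by 1.89 in log2 odds (Fisher's exact test, p = 3.6e-61). The inner 6 bases fell in the same order, from 62.3% to 14.9%. The direction was the same within promoter peaks (31.8% against 15.5%), within distal peaks (30.1% against 9.49%), within each of 4 classes of peak width and each of 4 classes of GC content. Among the peaks that overlapped no BHLHB8-HA peak, the shares were 30.3% and 16.2%. These divisions were added after the data were examined.

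Read from the genome instead of from the peaks, the relation ran the other way. The palindrome occurs 45006 times on the 21 chromosomes, and 1262 occurrences (2.80%) lay inside an EBF1-HA peak. Outside the peaks of all other constructs, 549 of 42975 occurrences were occupied (1.28%, 95% interval 1.17 to 1.39). Inside a peak of at least 1 other construct, 713 of 2031 were occupied (35.1%, interval 33.0 to 37.2), a difference of 5.38 in log2 odds whose Fisher p-value was too small to be held as a number and was returned as 0. Occupancy was 22.0% where 1 other construct had a peak, 66.7% where 2 to 4 had one and 90.8% (79 of 87) where 5 or more had one. EBF1-HA peaks were also frequent at such sites without the palindrome. When the peaks of the other constructs were merged into sites, 2467 of the 8655 sites of 5 or more constructs had an EBF1-HA peak (28.5%). The share was 81.9% (212 of 259, interval 76.6 to 86.4) where the site held the palindrome anywhere in its width and 26.9% (interval 25.9 to 27.8) where it did not. At sites of 1 construct these shares were 16.1% and 0.847%, and at sites of 2 to 4 constructs 54.0% and 8.28%. Sites with the palindrome were wider, with a median of 970 bp against 791 bp at 5 or more constructs, and the part of width was not tested. This count was added after the data were examined.

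**Figure D3:**
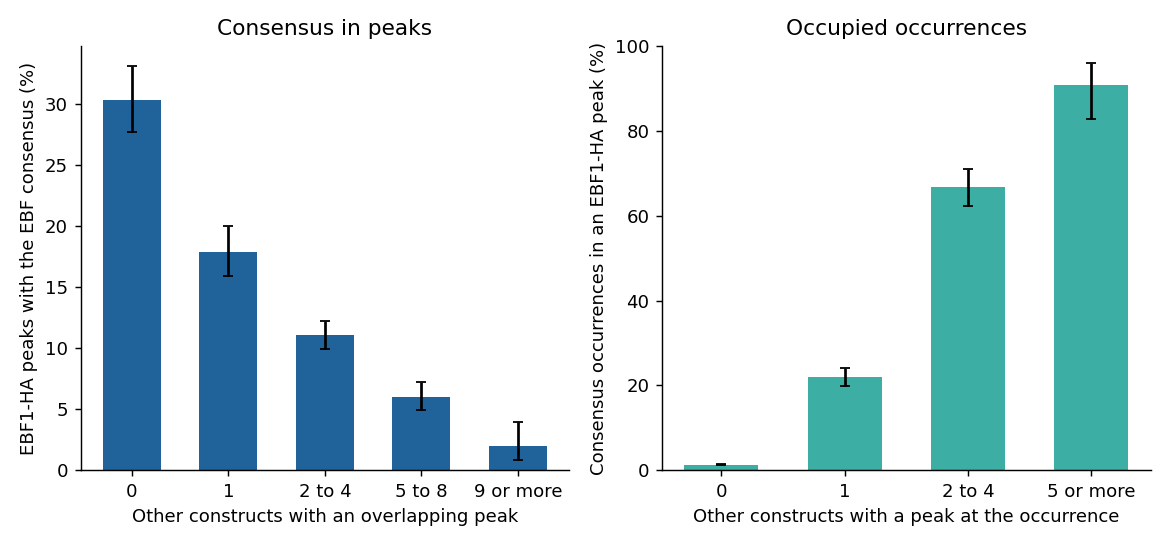
Left, share of EBF1-HA peaks with the palindrome (%), by number of other constructs with an overlapping peak; right, share of genomic palindromes inside an EBF1-HA peak (%), by number of other constructs with a peak there. Bars are 95% exact intervals; the left panel falls from 30.3% to 2.02% and the right panel rises from 1.28% to 90.8%.

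Other properties of the occurrence also moved with occupancy. Occurrences in promoters were occupied in 14.6% of cases (289 of 1981) and those elsewhere in 2.26% (973 of 43025). In soft-masked repeats 1.30% were occupied, and outside them 3.26%. Only uniquely aligned reads were kept by the authors, and the part of alignment in the repeat value was not tested. Outside repeats the spacer GC, which also reads GC on the other strand, was occupied most often (10 of 134, 7.46%, 95% interval 3.64 to 13.3), followed by CG (6.05%) and CC (5.43%), and AT least often (50 of 3190, 1.57%, interval 1.17 to 2.06). The intervals of GC, CG and CC overlap each other, and none overlaps that of AT. The spacers were not divided by location, and the part of promoters in these shares was not tested. A T before both half-sites went with lower occupancy (2.30%, interval 1.83 to 2.86) than a T before neither (3.65%, interval 3.37 to 3.95). Occurrences with a T before both were divided further by an A before that T. With 0 such A, 1.83% were occupied (interval 1.32 to 2.47), with 1, 3.12% (interval 2.13 to 4.39). With 2 it was 4.23% (6 of 142, interval 1.57 to 8.97), and the 3 intervals overlap.

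Promoter peaks carried the palindrome more often than distal peaks, at 17.7% (230 of 1303) against 12.7% (808 of 6366), a difference of -0.56 in log2 odds, distal minus promoter (Fisher's exact test, p = 3.6e-06). Within sharing classes the direction was the same in all 4, and whether the classes differ was not tested. Among EBF1-only peaks the shares were 31.8% in promoters (95% interval 24.9 to 39.3) and 30.1% in distal peaks (interval 27.2 to 33.0), with p = 0.65 by Fisher's exact test. By the same exact test they were 18.7% and 17.6% with 1 other construct (p = 0.63), and 15.3% and 9.86% with 2 to 4 others (p = 0.00019). With 5 or more others they were 8.45% and 5.05%, a difference of -0.84 in log2 odds (Fisher's exact test, p = 0.082). In 4 classes of GC content the difference ran from -0.59 to -1.08. With the 10 base palindrome they were 0.921% and 0.927% (Fisher's exact test, p = 1).

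EBF1-only peaks and shared peaks differed little in their promoter share, and the sign of the difference depended on definitions. Promoters held 173 EBF1-only peaks (14.9%, interval 12.9 to 17.0) and 1130 shared peaks (17.4%, interval 16.5 to 18.3), p = 0.038 by Fisher's exact test. With promoters taken to 5 kb, the shares were 35.0% and 28.6% (p = 1.5e-05, Fisher's exact test), with the opposite sign. The promoter share rose and fell along the classes: 25.6% with 1 other construct, 21.7% with 2 to 4, 7.31% with 5 to 8 and 2.52% with 9 or more.

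All 23 other constructs overlapped EBF1-HA peaks more than windows of the same widths placed 5 kb downstream (largest adjusted p = 7.8e-09, Fisher's exact test, adjusted over 23 constructs). BHLHB8-HA, a basic helix-loop-helix factor and the largest set with 83627 merged peaks, overlapped 5838 EBF1-HA peaks (76.1%) and 6.34% of the 7568 windows. The homeodomain factor DLX6-HA overlapped 3447 (44.9%, against 1.53% of windows), SOX2-HA 3389 (44.2% against 1.78%) and DLX1-HA 2940 (38.3% against 1.52%). SIX6-HA overlapped 1552 (20.2% against 0.581%), and the remaining 18 constructs each overlapped at most 15.3%.

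Overlap followed the size of the other list only in part. CDX2-HA, with 25278 peaks, overlapped 600 EBF1-HA peaks (7.82%) and had 2.39% of its own peaks at EBF1-HA sites. SOX2-HA, with 25452 merged peaks, had 13.3% of its own at EBF1-HA sites, and SIX6-HA had 25.7% of 6075. TOX3-HA, a high mobility group box protein, had 48.5% of its 1286 peaks at EBF1-HA sites. The shortest lists had the highest such shares: 66.1% of 62 peaks for PRR3-HA, 56.9% of 58 for THAP4-HA and 49.6% of 119 for OCT4-HA. At sites of fewer than 10 constructs, PRR3-HA and THAP4-HA each kept 1 overlapped EBF1-HA peak, OCT4-HA 4, FOXA1_RR-HA 4 and FOXA1_SW-HA 2, and these 5 constructs no longer passed the test. OCT4-HA co-expressed with SOX2-YPET overlapped 96 EBF1-HA peaks (1.25%), which is 1.83% of its own 5146.

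Duplicate lists show how far an overlap can move with the library. EBF1-HA peaks were overlapped in 70.3% and 57.1% of cases by the 2 BHLHB8-HA lists, in 43.9% and 12.8% by the 2 SOX2-HA lists, and in 14.6% and 3.12% by the 2 FOXA1-HA lists. The SOX2-HA lists hold 25049 and 5692 peaks, and the FOXA1-HA lists 6033 and 1099. The order of the constructs by overlap is therefore not settled within those spreads.

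**Figure D4:**
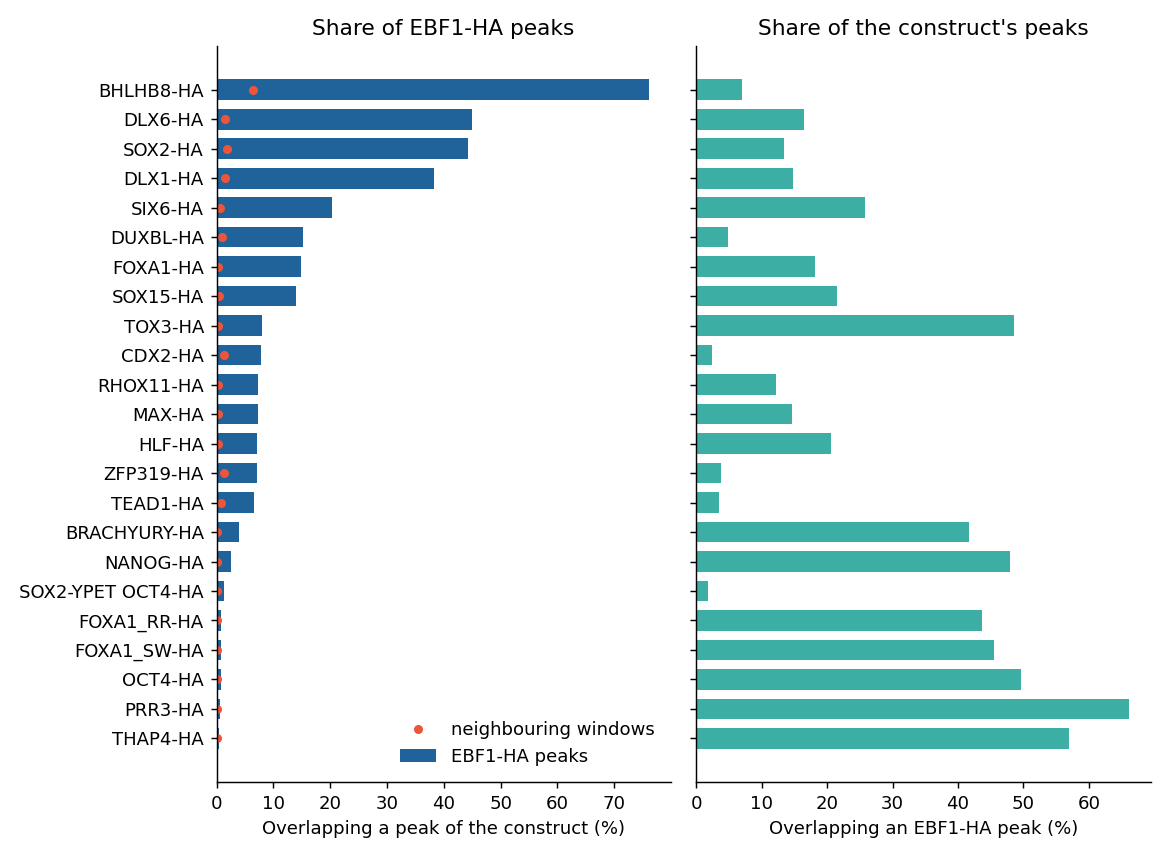
Left, EBF1-HA peaks (bars, %) and windows of equal widths 5 kb downstream (points, %) that overlap a peak of each of 23 constructs; right, share of each construct's merged peaks that overlap an EBF1-HA peak (%). BHLHB8-HA reaches 76.1% on the left and PRR3-HA, with 62 peaks, reaches 66.1% on the right.

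The palindrome was less frequent in overlapped than in other EBF1-HA peaks for 22 of the 23 constructs. For BHLHB8-HA the shares were 9.88% and 25.2%, for DLX6-HA 6.44% and 19.3%, and for SIX6-HA 5.54% and 15.6%. The exception was TEAD1-HA, the Hippo pathway factor, with 14.3% (73 of 511) against 13.5%. EBF1-HA peaks that overlapped TEAD1-HA were promoter peaks in 80.4% of cases, against 17.0% of all EBF1-HA peaks.

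Sequences known for other TF families were also present. The AP-1 sequence (TGAGTCA or TGACTCA on either strand), bound by FOS and JUN dimers, was found in 1664 peaks (21.7%) and in 3.20% of windows. It was found in 24.6% of distal and 7.52% of promoter peaks. The E-box CAGCTG, a target of basic helix-loop-helix factors, was found in 19.4% of peaks and 8.84% of windows. The E-box share was 22.9% (1334 of 5838) in peaks that overlapped BHLHB8-HA and 8.52% (156 of 1831, 95% interval 7.28 to 9.89) in peaks that did not, which is close to the windows. The RUNX sequence TGTGGT was found in 23.4% against 15.9%, the TEAD sequence CATTCC in 17.5% against 11.3%, and GGGCGG, bound by SP and KLF factors, in 1077 peaks against 3.29% of windows, and in 40.1% of promoter peaks.

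AP-1 and RUNX sequences were less frequent where the EBF palindrome was present. AP-1 was found in 16.7% of peaks with the palindrome and 22.5% of those without (Fisher's exact test, p = 1.7e-05), and RUNX in 17.4% and 24.3% (p = 7.8e-07). By the same exact test, the shares for the E-box were 16.6% and 19.9% (p = 0.013), for TEAD 15.6% and 17.8% (p = 0.095) and for GGGCGG 12.9% and 14.2% (p = 0.27). These p-values are not adjusted for the 5 sequences, which were chosen after earlier results of these data were known. AP-1 and RUNX also varied with location and sharing. RUNX was found in 12.6% of promoter and 25.6% of distal peaks, and in 18.9% of EBF1-only against 24.2% of shared peaks. AP-1 was found in 17.4% of EBF1-only and 22.5% of shared peaks. The part of location and sharing in these differences was not tested.

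Target genes were assigned by position alone, since the files hold no expression. A peak within 1 kb of a start was found for 1361 of 21829 protein-coding genes (6.23%), and a peak in the gene or up to 10 kb before it for 3697 (16.9%). The second share rose with gene length, from 8.01% to 28.9% between the shortest and the longest of 4 equal classes of genes. By nearest start within 100 kb, 4084 genes had at least 1 EBF1-HA peak, 2700 had 1 and 152 had 5 or more.

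The gene with the most EBF1-HA peaks by nearest start was Zmiz1, which encodes a transcriptional coregulator. It had 15 peaks over 175 kb, of which 4 held the palindrome and 6 were EBF1-only. The septin gene Sept9 had 11, with 3 at promoters. Agap1 and Sik1, a salt-inducible kinase gene, had 10 each, and Asap1, Rab11fip4 and Smad3, a transducer of TGF-beta signals, had 9 each. All 7 of these genes had more peaks in a BHLHB8-HA list, from 17 at Zmiz1 to 30 at Asap1. Between 14 (Sept9, Sik1) and 19 (Asap1) of the other lists had peaks there. The genes were 11555 bp (Sik1) to 442812 bp (Agap1) long. A pair of genes was of another kind. Sfi1 had 13 peaks within 55.0 kb of chromosome 11 and Gm15319 had 11 within 170 kb of chromosome 8. None of these 24 peaks held the palindrome or was EBF1-only, all 27 other lists had peaks in both spans, and the median number of other constructs per peak was 17 and 15. For the 7 genes named before them that median was 1 to 6.

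The EBF genes themselves carried EBF1-HA peaks in introns. Ebf1 had 2, at chr11:44894044-44894378 and chr11:44975111-44975382. They overlapped 5 and 3 other constructs and held no palindrome, though the second held the inner 6 bases. Ebf2 had 3, at chr14:67297572-67297787, chr14:67298996-67299208 and chr14:67357623-67357901. The third held the palindrome printed above and was EBF1-only, and the first was EBF1-only with no palindrome or inner 6 bases. No peak was found in Ebf3 or Ebf4 or up to 10 kb before them.

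Some known partners of EBF1 were among the genes with peaks. In the list of the EBF family and its partners, 8 of 16 genes had a peak in the gene or up to 10 kb before it (50.0%, 95% interval 24.7 to 75.3, against 16.9% of all genes). The 8 include Ebf1 and Ebf2 themselves. Pax5, Ikzf1, Spi1, Smarca4, Tet2 and Tcf12 had no such peak. The genes of this list are long, with a median of 104418 bp against 17396 bp for all genes. In that class of length 28.9% of all genes had such a peak, a share inside the interval. Promoter peaks were found at 2, Foxo1 and Zfp423 (12.5%, interval 1.55 to 38.3, which includes the 6.23% of all genes). Runx1, a partner of EBF1 in B cells, had 8 peaks in its introns, of which 1 held the palindrome and none was EBF1-only. Zfp521 had 2 peaks, Tcf3, which encodes E2A, and Cbfb, the partner subunit of RUNX proteins, 1 each. The Foxo1 promoter peak, chr3:52268080-52268438, lay 77 bp before the start, held the palindrome and was EBF1-only. The Zfp423 promoter peak, chr8:87804652-87804876, held none and was shared with 1 construct.

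Genes for which EBF1 is known in the B lymphocyte were almost without peaks in these fibroblasts. Of 25 B-cell genes, 1 had a peak in the gene or up to 10 kb before it (4.00%, interval 0.101 to 20.4), and this was Foxo1. Of 14 olfactory neuron genes, 2 had one, Adcy3, the adenylate cyclase of odour transduction, and Ncam1, both in introns and without the palindrome. Of 22 fat-cell genes 6 had one (27.3%, interval 10.7 to 50.2). The fat-cell genes with promoter peaks were Lipe, the hormone-sensitive lipase, with 2, Scd1, a fatty acid desaturase, and Zfp423. They make up 13.6% of the list (interval 2.91 to 34.9, which includes the 6.23% of all genes). Acsl1, Cebpb and Zfp521 had peaks in the gene or before it. No EBF1-HA peak at the fat-cell genes held the palindrome, and none was EBF1-only. With these list sizes, the intervals of the B-cell, olfactory and fat-cell shares all include the 16.9% of genes at large.

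Genes of the fibroblast and its matrix stood higher. Of 34 such genes, 18 had a peak in the gene or up to 10 kb before it (52.9%, interval 35.1 to 70.2) and 9 a promoter peak (26.5%, interval 12.9 to 44.4, against 6.23% of all genes). Promoter peaks lay at Fn1 (fibronectin), Vim (vimentin), Sparc, Tnc (tenascin C), Loxl1 (a lysyl oxidase), Ccn1, Fbn1 (fibrillin) and the mesenchymal TF genes Snai2 and Twist1. The Twist1 peak, chr12:33956833-33957239, lay 635 bp before the start, held the palindrome and was shared with 1 construct. The Fbn1 promoter peak, chr2:125505904-125506176, also held it, as did 2 of the 3 further Fbn1 peaks, of which that at chr2:125356549-125356819 was EBF1-only. The other 7 promoter peaks held none and overlapped 4 to 8 constructs. These genes have a median length of 21413 bp, and 18.2% of all genes in their class of length had a peak in the gene or before it.

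Signalling pathways were read from fixed lists too. In the insulin and PI3K-AKT list, 9 of 40 genes had a promoter peak (22.5%, interval 10.8 to 38.5, against 6.23% of all genes). They included the receptor Insr, its adaptor Irs1, the kinase Akt2, the PI3K subunit Pik3r2 with 2 peaks and its inhibitor Pik3ip1. The lipid phosphatase Inpp5d, the binding protein Igfbp4 and the target TF Foxo1 also had one. A peak in the gene or up to 10 kb before it was found for 13 of the 40 (32.5%, interval 18.6 to 49.1). The median gene length of this list is 69740 bp. In that class of length 8.25% of all genes had a promoter peak and 28.9% a peak in the gene or before it, a share inside the second interval. One of the Pik3r2 peaks, chr8:70776709-70777064, held the palindrome and was EBF1-only. In the TGF-beta and BMP list, 20 of 50 genes had a peak in the gene or up to 10 kb before it (40.0%, interval 26.4 to 54.8, against 16.9% of all genes). The median gene length of this list is 39493 bp, and 18.2% of all genes in that class of length had such a peak. Promoter peaks were found at 4 (8.00%, close to the 6.23% of all genes): the latent TGF-beta binding proteins Ltbp1 and Ltbp2, the transducer Smad3 and the inhibitor Smad6. In the Notch list 14 of 28 genes had a peak in the gene or before it (50.0%, interval 30.6 to 69.4, against 16.9% of all genes). Its median gene length is 22835 bp, and 18.2% of all genes in that class of length had such a peak. Jag1, a ligand, and Numbl, an inhibitor, had promoter peaks (7.14% of the list, close to the 6.23% of all genes). In the Wnt list 10 of 52 genes had a peak in the gene or before it (19.2%, close to the 16.9% of all genes). Promoter peaks lay at the receptor gene Fzd2 and the feedback inhibitor Axin2 (3.85% of the list, against 6.23% of all genes).

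In the NF-kB and cytokine list, 7 of 30 genes had a peak in the gene or before it (23.3%, interval 9.93 to 42.3, which includes the 16.9% of all genes). Promoter peaks lay at the chemokine Ccl2, the growth factor Csf1 and the receptor Il6st, of which only Il6st held the palindrome. Their share was 10.0% (interval 2.11 to 26.5, which includes the 6.23% of all genes). In the bone and pericyte list 5 of 15 had a peak in the gene or before it (33.3%, interval 11.8 to 61.6, which includes the 16.9%) and none had a promoter peak. Over all 11 lists together, 32 of 318 genes (10.1%, against 6.23% of all genes) had a promoter peak and 98 (30.8%, against 16.9%) a peak in the gene or up to 10 kb before it. The lists were chosen with earlier results of these data known, and the part of gene length in the pooled shares was not tested. The 34 promoter peaks of these listed genes held the palindrome in 6 cases (17.6%), against 17.7% of the 1303 promoter peaks of all genes, and 2 were EBF1-only (5.88%, against 13.3%).

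**Figure D5:**
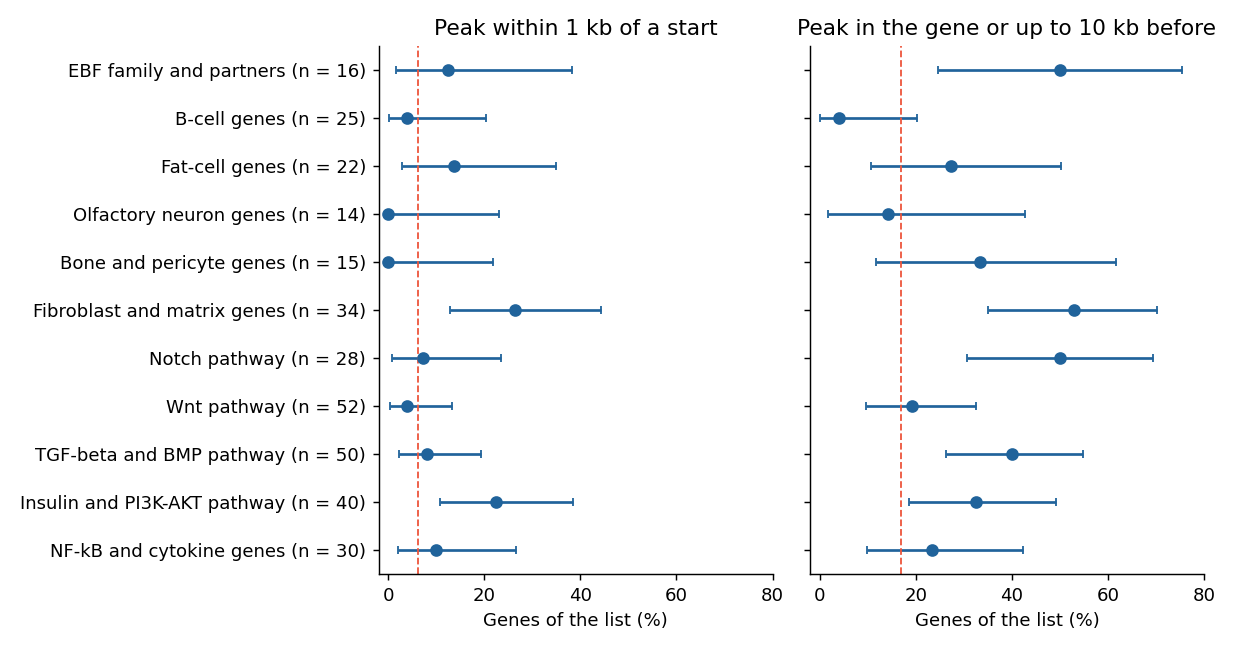
Share of the genes of each fixed list (%) with an EBF1-HA peak within 1 kb of a start (left) and in the gene or up to 10 kb before it (right), with 95% exact intervals; dashed lines mark all protein-coding genes (6.23% and 16.9%). The fibroblast and matrix list stands at 26.5% and 52.9%, and the B-cell list at 4.00% in both.

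Wide promoter peaks with the palindrome at sites of fewer than 10 constructs gave a further set of candidate targets. The 10 widest, 574 to 1055 bp, lay at Btbd19, Brd2 (a BET protein), Pold4 (a DNA polymerase delta subunit), Cpsf3 (a pre-mRNA cleavage factor), Nr1d1 (the clock repressor REV-ERBalpha), Bad (a BCL2 family death factor), Pld1 (phospholipase D), Ppox (a heme synthesis enzyme), Egr1 (an immediate early TF) and Ctps2 (a CTP synthase). Their midpoints lay within 487 bp of the start. Each was shared with 1 to 7 other constructs. The Egr1 peak was shared only with ZFP319-HA and the Ctps2 peak only with BHLHB8-HA.

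The 10 widest EBF1-only distal peaks with the palindrome were 418 to 858 bp wide. Their nearest starts included those of Sectm1a, Tmem136, Coro1c, Bod1, 7530416G11Rik, Pacsin1, Tnfrsf13c, Crb2 and 1700025C18Rik, at 4280 to 68659 bp. Tnfrsf13c encodes the B-cell receptor of BAFF. Its peak, chr15:82229502-82229955, lay 5360 bp before the start, in a noncoding gene. The Tmem136 peak lay in a coding exon and the Pacsin1, Crb2 and 1700025C18Rik peaks in introns.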

How the data were processed

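Anti-HA ChIP-seq peak lists of 24 constructs were used, grouped by the labels; the input sample was not analysed here. Per the authors' methods and the submitters' processing notes, paired-end reads were aligned uniquely to mm10 with STAR 2.5.3a, duplicates were removed with Picard, peaks were called per sample with MACS2 2.1.1.20160309, and peaks at input peaks or blacklisted regions were discarded; deepTools 2.4.2 is also named. The deposited files give positions in bp only, with no other unit, so depth is unknown and was not equalized. Removal of input peaks is shared by all lists.

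Sequence came from GRCm38 (the same build as mm10) and genes from GENCODE vM21. Coordinates are 1-based. NumPy 2.4.6 and SciPy 1.17.1 were run under Python 3.11.15, with Matplotlib 3.10.9 for plots. Duplicate lists were merged per construct, and overlap means at least 1 bp. Sequences were searched in the central 200 bp, on both strands. Shares were compared by two-sided Fisher's exact test with peaks as units (log2 odds with 0.5 added to each cell, threshold 0.05), with exact Clopper-Pearson 95% intervals. The counting was tested on simulated data with planted sequences and overlaps. The members, lists and tests were chosen with earlier results of these data known.

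Genes were named by rule: the 10 with the most peaks by nearest start within 100 kb, those of the 10 widest promoter peaks with the palindrome at sites of fewer than 10 constructs, those of the 10 widest EBF1-only distal peaks with it, the 5 peaks with the most copies, listed genes with promoter peaks (for the EBF, B-cell, fat-cell and olfactory lists also in the gene or up to 10 kb before it), and Ebf1 to Ebf4. Some genes that the rule names are not reported here. Sequences were printed from such peaks outside exons. Alternatives changed the window, core, promoter, overlap, control windows, peak width and lists.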

Additional observations from a re-analysis of the deposited data

How the results depend on the processing

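No paired analysis was possible because EBF1-HA has 1 list, so no replicate block could be fitted. Of 70 alternative values, 57 had the sign and significance of the reported one, or stayed near it. The excess of the palindrome over windows (4.69 in log2 odds) kept both under every alternative, as did its excess in EBF1-only over shared peaks (1.89) and the occupancy difference (5.38).

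The promoter share of EBF1-only minus shared peaks, -0.27 in log2 odds, changed sign with promoters of 5 kb (0.42), with a reciprocal overlap of 50% (0.90) and with peaks of 300 bp or more (0.40). The distal minus promoter difference in the palindrome, -0.56, lost significance with the 10 base palindrome (-0.037) and, in divisions added after the data were examined, within peaks with 0 other constructs (-0.12), with 1 (-0.11), with 5 or more (-0.84) and in the lowest of 4 classes of GC content (-0.72). These divisions hold fewer peaks, and the cause was not tested.

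The 23 constructs above windows stayed at 23, except for 18 at sites of fewer than 10 constructs, and leaving out either replicate of the duplicated constructs gave 23 to 23. The 7 lists above windows, EBF1-HA included, became 12 with whole peaks and 2 without peaks overlapping an EBF1-HA peak. The last setting removes occupied palindromes by construction. The listed genes with a promoter peak rose from 10.1% to 20.1% with promoters of 5 kb, where all genes stood at 10.2%. Assigned by nearest start within 50 kb, 36.8% of listed and 17.2% of all genes had a peak. The excess at the 2 base gap moved from 12.9 to 14.8 percentage points with whole peaks. With positions alone, weak sites below the peak threshold were not detectable.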
